A study of Mus musculus with 2 samples.

Results

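Cytosolic ribosomal protein genes encode the proteins that, together with ribosomal RNA, form the large and the small subunit of the ribosome outside mitochondria. They were taken as the protein-coding genes of the GENCODE M21 annotation whose symbol is Rpl or Rps followed by a number and any of the suffix letters a, l and x, together with Rplp0, Rplp1, Rplp2 and Rpsa. The Rps6k kinases and genes annotated or named as pseudogenes were left out. The rule found 81 of 55536 annotated genes, 50 of the large and 31 of the small subunit. All 81 had rows in the gene and transcript tables of both libraries.

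RNA with polyA tails was sequenced from regulatory T cells, a CD4 lineage that holds immune responses in check. The cells came from 1 adult male mouse aged 4 months, of a strain combining Foxp3CreERT2 with Rosa26YFP, and no other genotype, treatment or age was compared. CreERT2 is a tamoxifen-inducible recombinase, here under control of the Foxp3 locus, and YFP is a fluorescent reporter; a tamoxifen treatment, a sort and a gate are not given in the labels. Both libraries were technical replicates of this 1 biological sample, called library 1 and library 2, so that values describe levels and every SD (n = 2) covers technical variation only.

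Library 1 held 15821875 estimated counts on annotated genes and library 2 held 16153671. The label was checked against markers. Foxp3, the defining transcription factor of regulatory T cells, stood at 43.2 and 36.2 TPM in libraries 1 and 2. A set of 7 T cell markers that includes it summed to 4678 and 4801 TPM. Most of this was Trac, with 2472 and 2588 TPM, and Cd3e, with 995 and 1050, which are not restricted to regulatory or CD4 T cells. Ikzf2 had 462 and 465 TPM, Il2ra 274 and 258, Cd4 226 and 199 and Ctla4 205 and 204. Summed markers of CD8 T cells were at 13.0 and 16.2 TPM, of B cells at 32.6 and 34.8 TPM, almost all of it Igkc, and of myeloid cells at 3.29 and 5.79 TPM. In bulk RNA of this kind, the number of cells of a type and the RNA per cell cannot be told apart.

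Ribosome production is among the largest investments of a growing cell. Ribosomal RNA is transcribed by RNA polymerase I and polymerase III, the proteins are imported into the nucleolus, and the subunits are assembled there with the help of many factors that are not part of the finished ribosome. Ribosomal protein mRNAs of vertebrates typically begin with a C followed by a run of pyrimidines (C or T), the terminal oligopyrimidine (TOP) motif, through which the kinase mTOR and the RNA-binding protein LARP1 control their translation. In T cells, activation raises mTOR signalling and ribosome production. Ribosomal protein genes have also left many processed pseudogenes in mammalian genomes, intronless copies made by reverse transcription of their mRNA.

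Since this motif is a feature that the choice of genes did not use, the start sites of the most abundant genes are shown first. The sequences are from RefSeq promoter windows on GRCm38.p6 (mm10), from 30 bases before the start to the 20th base after it, 5′ to 3′ on the gene's strand, and capitals mark the longest run of C or T that reaches within 10 bases of the start. The first group holds the most abundant genes with a window.
Rps19, chr7:24884562-24884611, plus strand: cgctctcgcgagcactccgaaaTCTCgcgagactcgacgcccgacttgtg
Rps27, chr3:90213629-90213678, minus strand: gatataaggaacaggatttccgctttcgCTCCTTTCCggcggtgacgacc
Rpl13a, chr7:45128726-45128775, minus strand: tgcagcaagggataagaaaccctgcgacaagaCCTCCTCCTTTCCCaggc
Rpl41, chr10:128549149-128549198, minus strand: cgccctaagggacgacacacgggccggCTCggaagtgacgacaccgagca
Rps18, chr17:33955646-33955695, minus strand: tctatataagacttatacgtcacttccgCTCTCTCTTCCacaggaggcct
The second group holds paralogs, related genes that encode a variant of the same ribosomal protein.
Rpl3l, chr17:24727796-24727845, plus strand: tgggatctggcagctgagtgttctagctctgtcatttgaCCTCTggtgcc
Rpl10l, chr12:66284382-66284431, minus strand: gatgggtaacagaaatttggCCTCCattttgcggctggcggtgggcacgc
Rpl39l, chr16:10170198-10170247, plus strand: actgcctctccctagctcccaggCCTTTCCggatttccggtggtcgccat
Rpl36al, chr12:69184048-69184097, minus strand: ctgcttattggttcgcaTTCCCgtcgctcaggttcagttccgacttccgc
Rps27l, chr9:66946056-66946105, plus strand: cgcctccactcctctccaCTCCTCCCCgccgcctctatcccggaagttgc

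In Rps27 and Rps18 the annotated start is a C inside a run of 9 and of 11 pyrimidines. The run of 14 in Rpl13a lies just downstream, from position 3 to 16, and its annotated start is a G. Rps19 and Rpl41, although among the most abundant genes, have runs of only 4 and 3 bases there. The RefSeq start of Rps19 lies 221 bases from the GENCODE start of the gene and that of Rps18 lies 336 bases from it, so the position of the start depends on the annotation. None of the 5 paralogs has a C at its annotated start.

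RefSeq windows were found for 61 of the 81 genes. A C stood at the annotated start of 19 of them (31.1%), against 14.8% of 8132 protein-coding genes with a window and at least 1 TPM in both libraries, a set that includes the ribosomal protein genes. A run of 5 or more pyrimidines held the start in 18 (29.5%) against 9.48%. Counting any run that reaches within 10 bases of the start, 26 genes (42.6%) had 8 or more pyrimidines in a row, against 13.8% of expressed genes and 13.0% of 69 mitochondrial ribosomal protein genes. The median run was 6 bases in ribosomal protein genes and 4 in expressed genes. The longest runs belonged to Rpl7a with 21 bases, Rpl27a with 20, Rpl35 with 18 and Rpl15 with 17. These counts describe letters in an annotation, and translation was not measured.

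**Figure D1:**
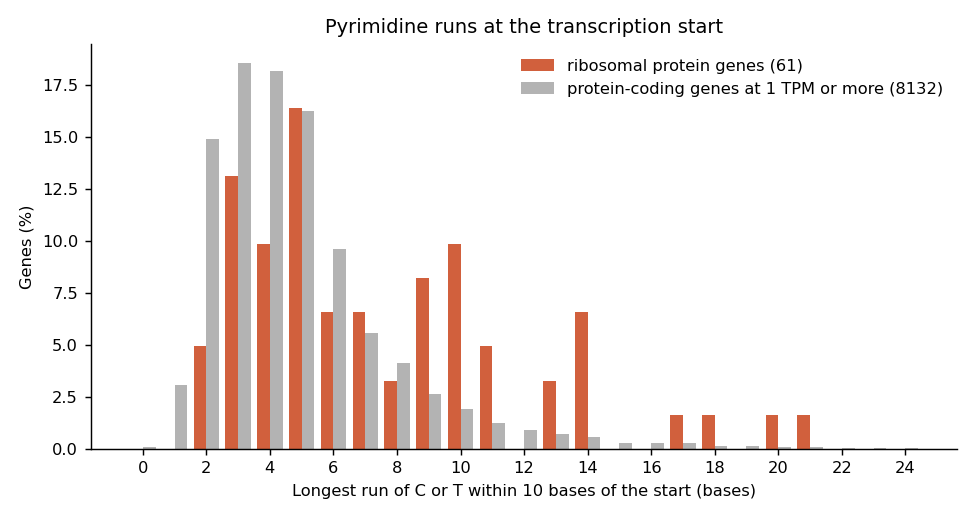
Distribution of the longest run of C or T within 10 bases of the RefSeq start, in bases, as percent of 61 ribosomal protein genes and of 8132 expressed protein-coding genes. Runs of 8 or more make up 42.6% of the former and 13.8% of the latter.

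Other promoter letters were also counted, a description of sequence and not of factor binding. TATAAA, the core of the TATA box, was found on either strand between 40 and 11 bases upstream of the start in 0 of 61 genes and in 1.09% of expressed genes. Only these exact letters were searched, so variants of the box were not counted. With so low a background, 0 of 61 does not set the family apart. CCGGAA, the core that ETS family factors recognise, occurred on either strand of the 300-base window in 30 of 61 genes (49.2%) against 32.5% of expressed genes and 56.5% of mitochondrial ribosomal protein genes. AAGATGG, the core recognised by YY1, occurred in 8 genes (13.1%) against 8.14% of expressed genes and 18.8% of mitochondrial ribosomal protein genes. The 3 motifs were searched separately.

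The genes were short as well as abundant. In the 66 genes whose leading transcript was protein coding, that transcript had a median of 576.5 bases, 447 of them coding, in 5 exons. The same medians over 8671 expressed protein-coding genes were 2471 bases, 1200 coding bases and 8 exons. The 81 genes were spread over 18 autosomes and the X chromosome, with 14 on chromosome 7.

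Levels were compared in TPM, which sums to the same total in every library and divides counts by transcript length. The median gene stood at 1356 TPM, and 79 of the 81 reached 1 TPM in both libraries, 75 reached 100 TPM and 52 reached 1000 TPM. Of the 20 most abundant protein-coding genes, 8 were ribosomal protein genes, as were 46 of the top 100 and 74 of the top 500. Together the 81 genes held 6.81% of counts in library 1 (95% exact Clopper-Pearson interval 6.80 to 6.83) and 7.27% in library 2 (7.26 to 7.28), which is 15.4 ± 0.45% of all TPM. Large subunit genes held 4.02 ± 0.18% of counts and small subunit genes 3.03 ± 0.14%. Intervals cover counting error only.

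Among small subunit genes, Rps19 was highest, with 9121 TPM in library 1 and 9875 in library 2. RPS19, a protein needed for maturation of the small subunit and mutated in Diamond-Blackfan anaemia, thus had the second highest level of all protein-coding genes in the deposited TPM. With the longest protein-coding transcript as length, Rps19 stood at 4112 TPM, below Rps18 at 6454 and Rps27 at 5699 on that scale, so this rank depends on the transcript length. It depends on near copies too, described further on, with which Rps27 stood at 10764 ± 375 TPM and Rps19 at 9712 ± 554. In the deposited TPM, Rps27 followed with 6250 and 6361, Rps14 with 5447 and 5660 and Rps18 with 5040 and 5174. Rps9 stood at 3576 ± 134 TPM. The small subunit median was 1767 TPM. At the other end, Rps12 had only 60.0 and 90.1 TPM, a wide gap for this family.

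Among the most abundant large subunit genes, Rpl32 had 6109 and 6344 TPM. Rpl13a, whose protein is known also for a role in translational silencing outside the ribosome, had 5360 and 5651 TPM. Rpl41, which encodes the smallest ribosomal protein, had 5078 and 5275 TPM. The large subunit median was 1200 TPM, with no test against the small subunit since genes are not replicates. Low members were Rpl12 with 31.3 and 32.4 TPM, Rpl5 with 68.1 and 73.7 TPM and Rpl27a with 237 and 234 TPM. RPL5 joins RPL11 and the 5S ribosomal RNA in the complex that restrains MDM2, and RPL12 forms part of the base of the stalk.

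Stalk proteins bind the translation factors that drive elongation. Rplp0, the stalk base, had 2985 and 3069 TPM, Rplp1 had 2752 and 2822 and Rplp2 had 2491 and 2527. The 3 levels lay close together and were in the same order in both libraries, and the ranges of neighbours in this order did not overlap.

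Some further genes are given for their known roles. Rps6, whose protein is phosphorylated by the S6 kinases downstream of mTOR, had 2150 and 2299 TPM, and its processed pseudogene Rps6-ps4 was given 2037 and 2427 TPM. Rps3, which lines the mRNA entry channel, had 2908 and 3015 TPM, with 4.09% of the windows of its leading transcript shared and no near copy that took counts. Rpl11, the partner of RPL5 in the 5S complex, had 1125 and 1172 TPM. That was above Rpl5 in both libraries, but with near copies, described further on, the sums were 2313 ± 133 TPM for Rpl11 and 1218 ± 35.5 TPM for Rpl5. Rps27a, which encodes ubiquitin fused to a small subunit protein, had 989 and 1010 TPM. Rpl38, known from mouse mutants for a part in the translation of Hox mRNAs, had 1000 and 1025 TPM, overlapping with Rps27a. Rpl10, which joins the large subunit last in assembly, was lower, with 411 and 444 TPM. This order holds for the genes without near copies. Rpl38-ps2 was given 1407 TPM in the mean, Gm8430, a near copy of Rps27a, 677, Rpl10-ps1 535 and Rpl10-ps3 533.

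The X chromosome carries Rps4x with 1427 ± 58.5 TPM, Rpl39 with 788 ± 6.41, Rpl36a with 495 ± 30.7 and Rpl10 with 428 ± 23.0. Their median was 641 TPM against 1469 TPM over the 77 autosomal genes. Near copies, described further on, are left out of both medians. Rpl36a-ps2 was given 791 ± 117 TPM, Rpl10-ps3 533 ± 28.5 and Rpl10-ps1 535 ± 4.16, each above the gene it resembles. With 4 genes on the X chromosome this is a description, and 3 of the 4 lie below the median of the family.

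The order of the genes was nearly the same in both libraries, with a Spearman correlation of 0.999 across 81 genes that share libraries and annotation. Between neighbours in the order, the ranges of the libraries overlapped in 50 of 80 pairs. The level ran from 31.8 to 9498 TPM over the 78 genes with at least 5 TPM, a coefficient of variation of 92.2% across genes. The 90th percentile was 10.1 times the 10th. Subunits contain 1 copy of nearly every protein, but the mRNA levels as estimated here were far from equal.

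**Figure D2:**
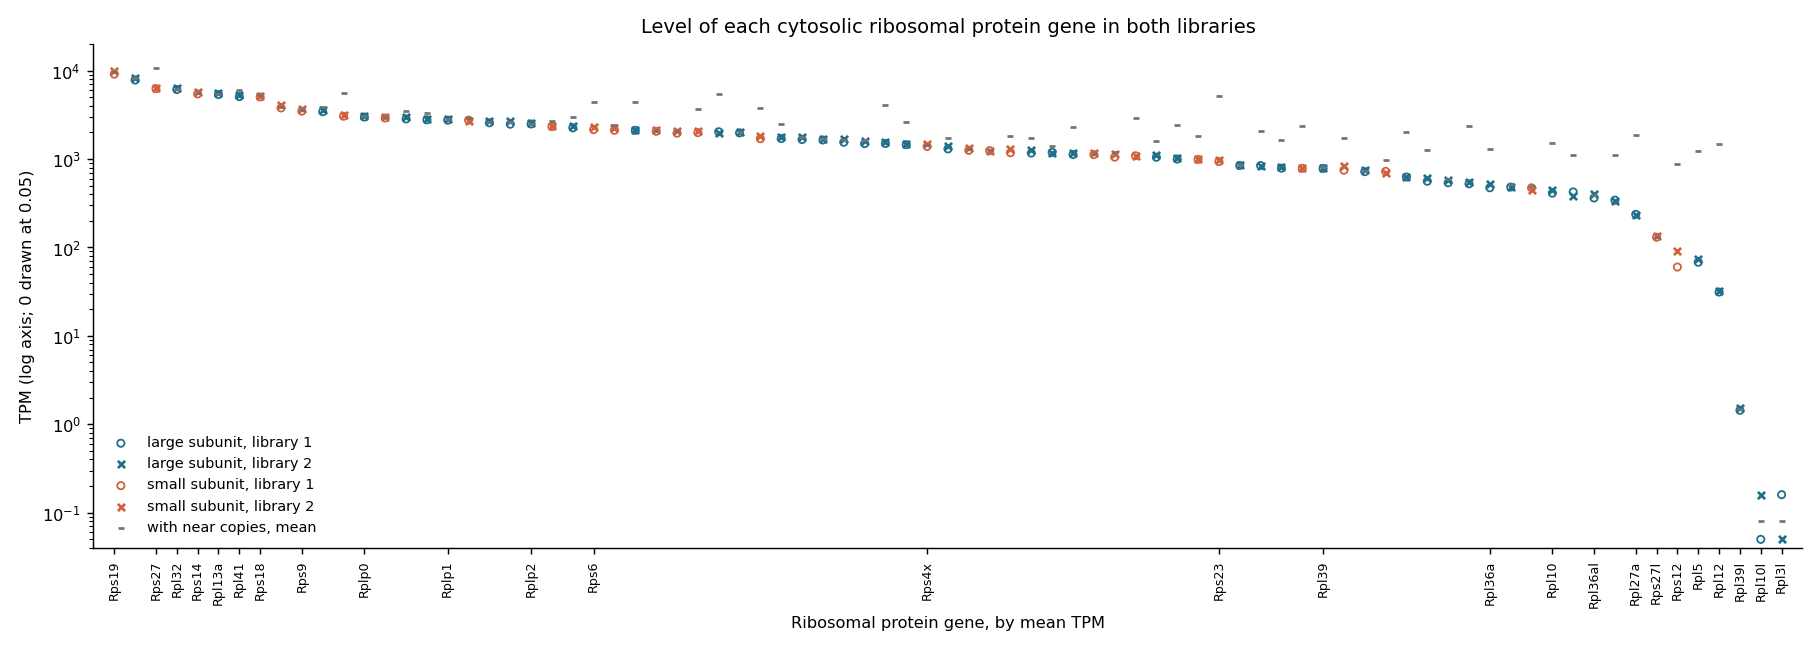
TPM of each of the 81 genes on a log axis, in order of the mean with some genes named, for library 1 (circles) and library 2 (crosses), coloured by subunit, with 0 drawn at 0.05. Grey dashes add the TPM of near copies; Rpl12, Rpl5, Rps12, Rps23 and Rpl27a are among the genes that they raise most, while the 3 genes at the right stay low.

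To measure how far these genes share sequence with other annotated genes, each transcript was read in windows of 50 bases, and a window was called shared when a transcript of another gene holds the same 50 bases on the same strand. A read that lies within such a window cannot be told apart by its letters. The median gene shared 20.8% of its windows, and in the leading transcripts the median was 64.3%, with 54 of 81 genes at 50% or more. Over 21951 protein-coding genes the median was 0%, and 7.71% shared at least 50%. Counted the same way, over all transcripts of a gene, 5 of the 81 genes (6.17%) shared at least 50%, close to that background, so the high shares lie in the leading transcripts, for which no background was computed. These 5 had shares of 81.1% (Rpl36), 60.0% (Rplp1), 57.4% (Rpl19), 51.8% (Rpl24) and 50.1% (Rpl23a). Rpl3l and Rpl39l were among the 3 genes that shared no window. Across the 78 genes at 50 counts or more, the mean TPM and the share of the leading transcript had a Spearman correlation of -0.02, so the share alone does not order the levels.

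Genes outside the family with at least 50% of their own windows in a ribosomal protein gene are called near copies here, a definition chosen after the data were seen. Position was not part of the definition, so a gene that lies within a ribosomal protein gene on its strand could also qualify without being a copy. There were 228 near copies of 69 genes by this definition, of which 181 are annotated as pseudogenes, 10 as protein coding and 37 as other types. A summed count of at least 10 was reached by 164. Some genes, such as Rpl13a with 2 near copies, have no pseudogene among them and 0 counts on them. They held 1.92 ± 0.11% of all counts, next to the 7.04 ± 0.32% on the ribosomal protein genes themselves. In 16 genes, under 50% of the counts of a gene and its near copies went to the gene itself in both libraries, while 38 genes kept 90% or more.

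For 3 of those 16 genes a coding stretch that the gene and its main near copy share letter for letter is printed, to show what a read there cannot separate. It is 50 bases from exon 2 of the gene, in lower case with no capitals, from GENCODE M21 transcripts on GRCm38.p6.
Rps23, chr13:90923587-90923636, plus strand, shared with Rps23-ps1 on chromosome 3: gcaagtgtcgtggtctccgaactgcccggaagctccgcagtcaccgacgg
Rpl12, chr2:32962049-32962098, plus strand, shared with Gm10275 on chromosome 10: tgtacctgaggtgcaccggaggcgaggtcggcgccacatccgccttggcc
Rpl5, chr5:107901870-107901919, plus strand, shared with Gm15500 on chromosome 7: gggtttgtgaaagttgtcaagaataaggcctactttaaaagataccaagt
The whole coding sequences of Rpl12 and Rpl5, 495 and 891 bases, were covered by windows that occur in the copy. For Rps23, with 429 coding bases, 376 of 380 coding windows occur in Rps23-ps1.

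Rpl12 itself was given 445 and 477 counts, whereas Gm10275, a transcribed processed pseudogene, was given 9574 and 9979. Rpl5 had 690 and 779 counts beside 13515 and 14750 on Gm15500. Rps23, whose protein sits at the decoding centre, had 5436 and 5935 counts beside 18933 and 21194 on Rps23-ps1. In each case the copy stood above the gene in both libraries, by a wide margin over the gap between libraries. Rpl13 had 18544 and 18984 counts, and its intronless copy Gm12918 had 24737 and 24939. Rps12 had 440 and 724 counts, 9.67% and 14.8% of the sum with its near copies, of which Rps12-ps3, annotated as protein coding on chromosome 19, had 2847 and 2749. The smaller gene tables, described further on, have rows for 26 near copies and split the counts otherwise. There Rps12-ps3 had 0 and 0 counts beside 28 and 30 on Rps12, and Rps27rt 0 and 0 beside 45 and 41 on Rps27. Rpl10-ps3 had 0 and 0 beside 101 and 90 on Rpl10. Other near copies kept counts there. Gm10036 had 56 and 67 beside 26 and 21 on Rpl11, so that this copy stood above its gene. For this pair the larger tables gave 143 and 172 beside 5966 and 6425. Gm2000 had 27 and 26 beside 61 and 61 on Rpl35, and Rpsa-ps10 13 and 17 beside 44 and 38 on Rpsa. All 26 near copies together held 223 and 251 counts, or 0.0064 ± 0.0006% of the smaller tables. How much RNA came from a gene and how much from a copy was not tested.

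Adding the near copies moved the bottom of the family. Rpl12 went from 31.8 to 1468 TPM, Rpl5 from 70.9 to 1218 TPM, Rps12 from 75.1 ± 21.2 to 873 ± 11.1 TPM, and the gap between libraries for Rps12 narrowed with it. With near copies, the median of the 78 genes at 5 TPM or more was 2092 TPM instead of 1448, and the coefficient of variation across genes was 74.3% instead of 92.2%. The lowest of these sums was then Rps27l at 133 TPM, a gene with no near copy. The share of all counts held by genes and near copies was 8.96 ± 0.43%.

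**Figure D3:**
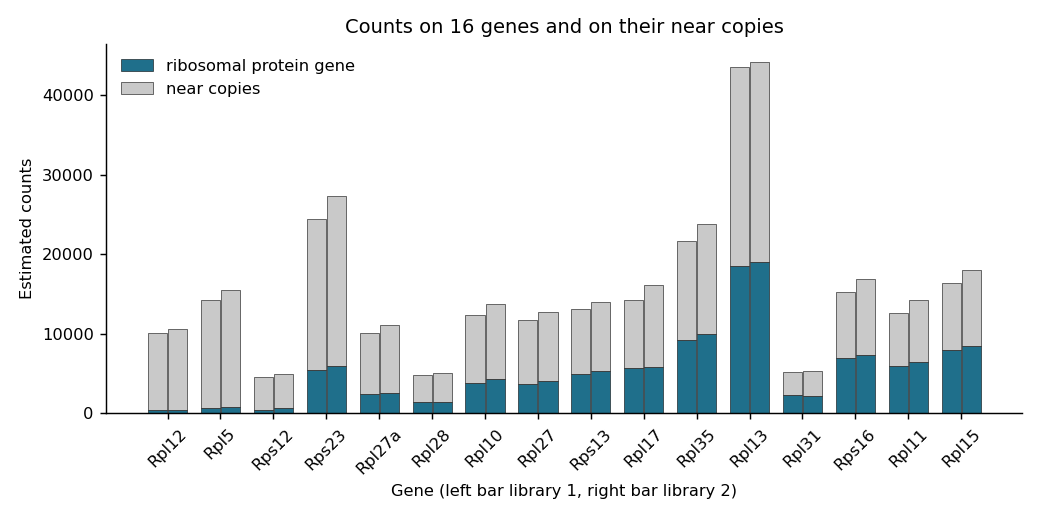
Estimated counts on each of the 16 genes that hold under 50% of the sum with their near copies (blue) and on those near copies (grey), the left bar of each pair for library 1 and the right for library 2. For Rpl12 the blue part is 445 and 477 counts, too thin to fill the bar.

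Several genes of the ribosome lie outside the rule by name. Rps27rt, a protein-coding gene on chromosome 9 with 91.1% of its windows in Rps27, had 4435 ± 287 TPM. Rps3a1, which encodes the small subunit protein eS1, lay outside the rule because of its symbol and had 1922 ± 93.6 TPM. The fusion gene Fau, which encodes a ribosomal protein joined to a ubiquitin-like peptide, had 1741 ± 25.4 TPM. Rack1, the scaffold protein on the head of the small subunit, had 1211 ± 33.6 TPM. All of these lie within the range of the 81 genes. The list of ribosome-associated and fusion genes, which holds Rps3a1, Fau, Rack1, Rpl22l1 and Rpl7l1 among others, had a median of 1476 TPM over 6 genes. By the test of library differences described further on, 5 of the 6 were higher in library 2 and 0 in library 1, against 11.8% and 13.4% of all genes tested. Among genes with a summed count of at least 5000 the backgrounds were 30.4% and 22.3%. Of short genes outside the family at that depth, 63.5% were higher in library 2.

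A smaller gene table deposited for each library, of whole-number counts on an older annotation (GENCODE M4), gave another view of the same libraries. It summed to 3742024 and 3675918 counts on matched genes. The same 81 genes held only 0.511 ± 0.009% of them. After scaling each table to its total, the 78 ribosomal protein genes with a summed estimated count of at least 50 were lower in the smaller table by a median log2 of -4.27. Of these 78, 72 were 4-fold or more lower, against a background of 7.32% of 10635 genes, whose median was 0.78. Asking for 50 counts in the smaller tables as well, which removes the genes that are lowest there, left 64 ribosomal protein genes with a median of -3.86, of which 58 were 4-fold or more lower, against 3.15% of 9098 genes.

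Rpl23a had 18053 and 19786 estimated counts but 11 and 20 counts in the smaller tables, a log2 ratio of -8.16 ± 0.54. Rpl19, Rps6, Rps29 and Rpsa followed, between -8.14 and -7.43. Rps29, a zinc finger protein of the small subunit, had 12 and 15 counts there. At the other end stood Rps27l with 0.25 ± 0.07, Rpl12 with -0.53 ± 0.07, Rpl22 with -0.97 ± 0.03 and Rpl8 with -1.41 ± 0.05. The paralog Rps27l was the only gene of the 78 above 0.

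Shared windows moved with this gap in part. The 54 genes whose leading transcript shared 50% or more had a median log2 ratio of -4.86, and the other 24 a median of -3.32. Across the 78 genes the Spearman correlation of the ratio with that share was -0.41, over points that share libraries and annotation. For other protein-coding genes, shares were counted over all transcripts of a gene, a measure by which 5 ribosomal protein genes reach 50%. On that measure, the 308 other genes with 50% or more shared windows had a median of -2.35, and 5280 with no shared window had 0.96. These medians are therefore not directly comparable with those split by leading transcript. How the smaller tables treat reads that map to several places is not given in the sources used here, and its part in the gap was not tested.

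**Figure D4:**
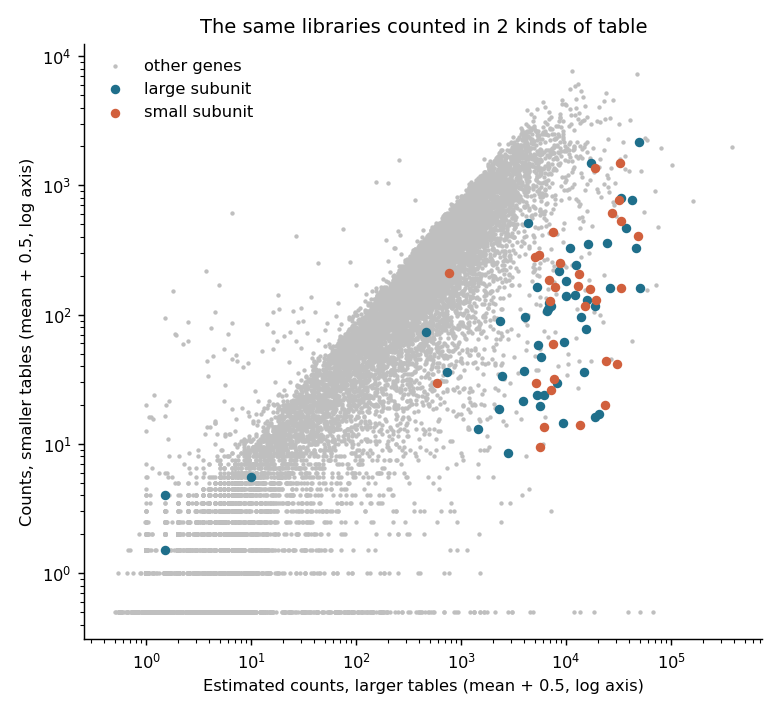
Mean counts per gene in the smaller tables against mean estimated counts in the larger tables, each plus 0.5 on log axes, for genes with a row in both. Ribosomal protein genes (coloured by subunit) fall below the main band of other genes (grey), and 72 of 78 lie 4-fold or more lower after scaling.

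The transcript tables divide each gene further. The 81 genes have 487 annotated transcripts, and the leading transcript, the one with the highest percent of the gene's TPM, was the same in both libraries for 77 genes. It held 90% or more in 37 genes. In the median gene 97.9% of TPM was given to protein-coding transcripts. The leading transcript was protein coding in 66 of the 81 genes. Of 10251 protein-coding genes with at least 1 TPM in both libraries, it was protein coding in 8671, so other leads are not particular to this family. The leading transcript was not protein coding in 15 ribosomal protein genes, and 7 of these were among the 16 that hold under 50% of the sum with near copies.

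Retained-intron transcripts led in 6 genes. Rps26-202 was given 94.7 ± 0.53% of Rps26, Rps20-201 88.0 ± 1.97% of Rps20, Rps23-202 82.4 ± 0.51% of Rps23 and Rpl5-205 78.6 ± 0.52% of Rpl5. Rpl27a-201 held 68.7 ± 3.28% and Rps16-203 61.9 ± 1.89%. These transcripts are between 450 and 815 bases long, and a retained intron in the annotation is not shown by these tables to be present in the RNA.

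Transcripts annotated for nonsense-mediated decay, the pathway that removes mRNAs with early stop codons, led in 4 genes. Rpl14-205 held 90.5 ± 0.81% of Rpl14 and Rpsa-206 89.6 ± 0.39% of Rpsa. Rpl12-201 held 37.6% in library 1 and 23.8% in library 2, where another transcript led.

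Transcripts annotated as processed, without a coding frame, led in 5 genes. Rpl35-203 held 98.2 ± 0.33% of Rpl35, Rpl23-204 87.9 ± 1.38%, Rpl37-202 84.6 ± 1.34% and Rpl24-204 53.1 ± 0.56%. In Rpl11 no transcript held 33% in the mean, with Rpl11-204 at 32.2 ± 0.90% and the protein-coding Rpl11-210 at 29.5 ± 4.72%. Rpl11-204 led in the mean but in neither library. Rpl11-210 led in library 1 with 32.83%, and Rpl11-207, also annotated as processed, led in library 2 with 34.11%. The leading transcript held under 50% in 6 genes, among them Rpl11, Rpl12, Rpl29 (49.3 ± 3.63%), Rpl13a (32.7 ± 0.10%) and Rpl3l, which had 2 counts in all. These percentages are the authors' model estimates, and reads that fit several transcripts of a gene are divided by that model.

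Paralogs differed widely in level from the gene they resemble. Rps27l, which encodes a close variant of RPS27 and is a known target of p53, stood at 131 and 135 TPM, or 2.11 ± 0.03% of Rps27. Rpl36al, an autosomal paralog of the X-linked Rpl36a, stood at 363 and 403 TPM, or 77.3 ± 0.93% of Rpl36a. Rpl36a held 51.0% and 48.0% of the counts summed with its near copies, and with near copies added to both genes the ratio was 30.2 ± 0.92%. For Rps27l and Rps27 the same sums gave 1.23 ± 0.01%. Rpl22l1, outside the rule by its symbol, was at 512 and 514 TPM, or 69.5 ± 2.22% of Rpl22, which is itself known for a part in T cell development. Rpl7l1 was at 4.55 ± 0.21% of Rpl7. No 50-base window was shared within any of these pairs, so their levels do not trade reads with each other at that length.

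Other paralogs were close to absent. Rpl39l, known from testis, had 9 and 10 counts, 1.44 and 1.53 TPM, or 0.19 ± 0.01% of Rpl39. Rpl3l, the striated muscle form, had 2 and 0 counts, and Rpl10l, a testis gene, 0 and 2. A count of 0 allows up to 3 counts, so Rpl3l and Rpl10l were at that limit in the larger tables, while Rpl39l, which shares no window, was above it in both libraries.

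The libraries were compared by an exact binomial test on counts, which compares 2 libraries of the same RNA sample and no condition. Of 79 ribosomal protein genes tested, 60 were higher in library 2 and 1 was higher in library 1, at an adjusted p under 0.05. Over all 17458 genes tested, 11.8% were called higher in library 2 and 13.4% higher in library 1, or 25.1% in either direction. With the counts of the smaller tables the same test called 0 of 79 genes in either direction, and the median log2 ratio was 0.012. The 81 genes held only 18897 and 19036 counts there, against 1078078 and 1174589 in the larger tables. At such counts a small shift could hardly be called in single genes, so the 0 calls do not decide whether it was present. In the larger tables the shift was small: the median log2 ratio, library 2 over library 1, was 0.09 (quartiles 0.06 and 0.12). There 75 of 79 genes were above 0, against 49.8% of all genes tested. With a difference of at least 1.2-fold asked as well, 1 gene passed, higher in library 2, and 0 were higher in library 1. The background was 16.6% in all, 7.42% higher in library 2 and 9.19% higher in library 1.

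That gene was Rps12, with a log2 ratio of 0.69 and adjusted p = 1.6e-13 in the exact binomial test. Its sum with near copies, 4548 counts in library 1 and 4888 in library 2, had a log2 ratio of 0.07. In the smaller tables, where it had few counts, Rps12 was at 0.11 with adjusted p = 0.94 in the exact binomial test, and was not called. Next came Rpl36al at 0.19, Rps26 at 0.18 and Rpl26 at 0.18, each higher in library 2. Rpl31 was the gene called higher in library 1, at -0.13 with adjusted p = 0.012 in the exact binomial test. Its sum with near copies, 5176 and 5334 counts, turned the direction, to 0.01. Rps2 at -0.04, Rpl28 at -0.03 and Rps25 at 0.00 also stood at the low end and were not called.

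Depth and length moved with this shift. Among genes with a summed count of at least 5000, 58 of 70 ribosomal protein genes were higher in library 2 and 0 higher in library 1, against 30.4% and 22.3% of all 1168 such genes. In the 2 shortest of 8 equal groups by transcript length, and with at least 5000 counts, 55 of 67 ribosomal protein genes (82.1%) and 120 of 189 other genes (63.5%) were called higher in library 2. The median log2 ratio was 0.09 in both sets, with quartiles of 0.06 and 0.12 for ribosomal protein genes and of 0.04 and 0.14 for the others. Over all genes tested it fell from 0.07 in the shortest eighth to -0.05 in the longest. The part of length in the shift was not tested beyond these values.

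**Figure D5:**
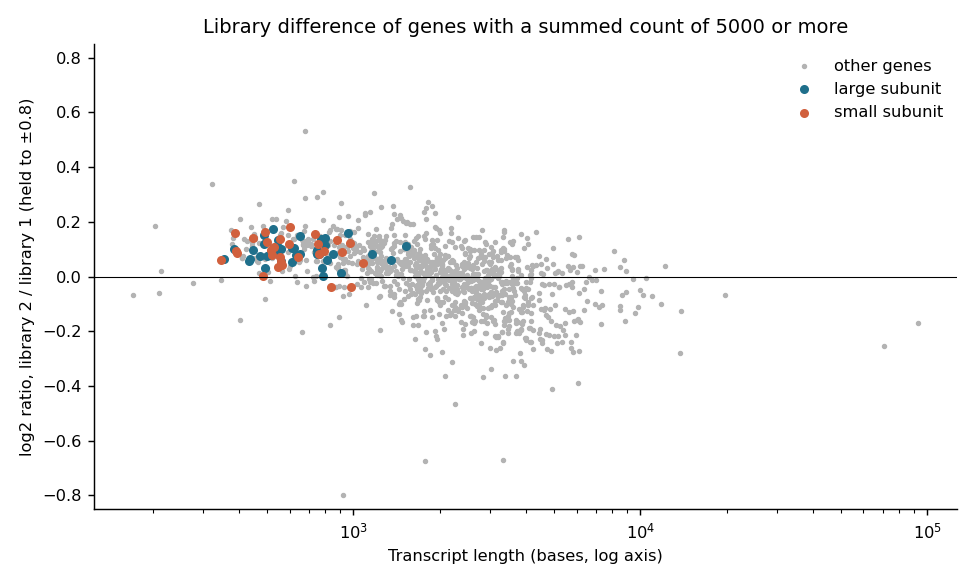
Log2 ratio of library 2 over library 1 against transcript length in bases (log axis) for genes with at least 5000 counts over both libraries, with ribosomal protein genes coloured by subunit and other genes in grey, ratios held to 0.8. Ribosomal protein genes lie in the upper left with the other short genes; their median is 0.09.

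Most genes of related processes were less abundant. The 78 mitochondrial ribosomal protein genes, whose products form the separate ribosome of mitochondria, had a median of 52.4 TPM, and all reached 1 TPM. Mrps21, Mrpl33 and Mrps14 were highest with 238 ± 12.9, 218 ± 20.4 and 199 ± 13.7 TPM, and Mrps30 lowest with 1.30 ± 0.01. Of the 78, 16 were higher in library 2 and 3 higher in library 1 by the same test, against the backgrounds of 11.8% and 13.4%.

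The 30 ribosome assembly genes had a median of 51.1 TPM. Npm1, a nucleolar chaperone, led with 1042 ± 15.7 TPM, followed by Nop56, of the box C/D ribonucleoproteins that methylate ribosomal RNA, with 290 ± 0.17, and Ncl, nucleolin, with 245 ± 5.17. Rrs1 was lowest at 3.49 ± 0.60 TPM. In the test, 7 of 30 were higher in library 2 and 4 higher in library 1, against the same backgrounds of 11.8% and 13.4%, which apply to the next lists too. The 11 RNA polymerase I genes had a median of 32.7 TPM, with Polr1d at 112 ± 1.65, Taf1d at 103 ± 9.21 and Polr1c at 82.6 ± 6.53 the highest and Taf1c at 9.04 ± 1.16 the lowest. Of these 11, 2 were higher in library 2 and 1 in library 1.

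Regulators of TOP mRNAs and other genes with such mRNAs formed a list of 15 with a median of 44.1 TPM. The list mixes these unlike kinds of gene, so its median describes neither. In both libraries 7 of the 15 reached 100 TPM and 3 reached 1000 TPM. Eef1a1, the elongation factor that brings aminoacyl tRNA to the ribosome, had 7596 ± 40.5 TPM and Tpt1 1514 ± 22.9, both within the range of the ribosomal protein genes. The kinase complex member Rptor was lowest with 7.15 ± 0.93 TPM. Of the 15, 4 were higher in library 2 and 2 in library 1.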

How the data were processed

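Both libraries are technical replicates of 1 sample and form 1 group. The authors deposited, per the file headers and readme texts, unscaled estimated counts and TPM scaled to a fixed total per M21 gene and transcript on mm10, the percent of a gene's TPM per transcript, and whole-number counts per M4 gene. Column names are those that RSEM writes; aligner, versions, strand setting and counting tool are not given in the sources used. Annotated genes matched 55536 of 81881 rows of the larger tables and 22195 of 22457 rows of the smaller ones.

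Estimated counts were rounded for the two-sided exact binomial test, conditional on the sum, over genes with a summed count of at least 10. The expected share used TMM (edgeR 4.0.16), the prior count of log2 ratios was 0.5, and Benjamini-Hochberg adjustment ran over all genes tested. The edgeR common dispersion over both libraries corresponded to a coefficient of variation of 13.0%, which the binomial test leaves out, so calls at high counts include small technical differences. The test was also run on simulated libraries drawn with counting error only. These lack the variation of 13.0%, so they cannot show how the test performs on the real libraries. Tables were compared where the summed estimated count was at least 50, scaled to totals over matched genes.

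The members and lists were chosen with earlier results of these data known. Named genes are the 10 highest and lowest members, paralogs, X-linked members, the 5 extremes of each comparison in each direction, members with an unusual leading transcript, and the 3 highest and the lowest of each list. The stalk genes, the genes given by role, Rps23, Rpl13, Rps27rt and the longest pyrimidine runs were added after their values were seen. Protein sequences were not used here, and values of some genes under this rule are not reported here. Alternatives covered scaling, filters, posterior mean TPM, window length and leaving out a library.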

Additional observations from a re-analysis of the deposited data

How the results depend on the processing

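No paired analysis was possible because all samples belong to 1 group. Leaving out either library moved the median member between 1301 and 1411 TPM, the genes at 1000 TPM or more between 52 and 53, the share of counts between 6.81 and 7.27%, the genes with a non-coding leading transcript between 14 and 15, and the table ratio between -4.29 and -4.25; no library comparison is left with 1 library. The median level was 1209 TPM with posterior mean estimates, 1269 over genes with under 50% shared windows, 1187 with the longest protein-coding transcript as length, and 2054 with near copies. The share was 8.05% of counts on protein-coding genes off the mitochondrial genome, 0.511% in the smaller tables and 8.96% with near copies. The counts of the smaller tables gave 0 calls in either direction by the exact binomial test and 0 with a 1.2-fold difference. The median log2 ratio there was 0.012, with 10.5% of all genes called. The ribosomal protein genes hold far fewer counts in those tables, so small shifts could hardly be called. DESeq2 size factors moved the median ratio to 0.11. With the smaller tables Rpl31 turned to 0.64 and Rpl36al to -0.041, neither called. The calls of Rps12, Rps26, Rpl26 and 1 other named gene were not repeated on these lower counts. Of 25 genes with a leading transcript under 50% shared, 20 were higher in library 2 and 0 in library 1, against 11.8% and 13.4% of all genes tested and 30.4% and 22.3% of those with at least 5000 counts. Scaling to genes in both tables moved the table ratio to -4.42. Median shared windows were 24.6% at 30 bases, 14.2% at 100 bases and 64.3% in leading transcripts. A pyrimidine run of 5 or more anywhere within 10 bases of the start occurred in 72.1% of genes, against 45.2% of expressed genes and 56.5% of mitochondrial ribosomal protein genes. Posterior mean medians were 46.9 TPM for mitochondrial ribosomal proteins, 1319 for ribosome-associated genes, 46.6 for assembly genes and 40.4 for TOP regulators and partners. Near copies, leading-transcript windows and depth limits were chosen after seeing the data.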
